A study of Mus musculus with 24 samples.

Results

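The genes described are *Nudt3*, an enzyme that removes phosphate from inositol pyrophosphates, and the other mouse genes that make or break down these molecules. The 9 genes listed were taken by symbol, and 8 of them were among the 13998 genes of the deposited table. *Ip6k3* was not analysed here. *Nudt3* lies on Chr 17 in the segment in which the mice differ, and it was included because its expression had differed between the genotypes in these same libraries, so its difference is given as a description without a test. The other 7 genes lie on other chromosomes and were included for their biochemical role.

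Inositol pyrophosphates are small signalling molecules that carry a pair of linked phosphates on an inositol ring. The IP6 kinases (*Ip6k1*, *Ip6k2*, *Ip6k3*) and the PPIP5 kinases (*Ppip5k1*, *Ppip5k2*) add the extra phosphate at different positions of the ring. The diphosphoinositol polyphosphate phosphohydrolases (DIPP), which belong to the Nudix family and are encoded by *Nudt3*, *Nudt4*, *Nudt10* and *Nudt11*, remove it. The molecules are known for roles in phosphate balance, insulin secretion, insulin signalling and vesicle traffic, and *Ip6k1* has been studied in the control of body weight.

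Hypothalamus RNA of 24 adult male F2 mice was profiled by SAGE-Seq, which sequences 27-base tags near the 3′ end of transcripts, with 1 library per mouse. All mice came from a cross of C57BL/6J with the congenic strain B6.CAST-17.1, and they carried either CAST alleles (*cast/cast*, 12 mice) or C57BL/6J alleles (*b6/b6*, 12 mice) over the whole Chr 17 segment, with *b6/b6* alleles elsewhere. A single congenic male founded the F2, and the mice were chosen from the tails of intake in a 10 d choice between a carbohydrate/protein (C/P) and a fat/protein diet, the *cast/cast* mice for high and the *b6/b6* mice for low C/P intake. They were killed about 48 h after these diets had been returned, so that genotype and intake cannot be told apart in the comparison. No mice of the opposite combination were sequenced. Values are normalized tag counts, that is, tag hits divided by the size factor of the library. Each library held 7754202 to 13082873 tag hits, summed over all genes of the deposited table.

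The tag windows below are possible tags of the genes on which the results turn. Each is the last CATG of the transcript, in capitals, with the bases that follow it to a length of 27, read 5′ to 3′ on the transcript strand from the GENCODE transcripts (GRCm38), after the transcript was cut to the limits that the deposited table gives. Which of the CATG sites of a transcript contributed hits is not given in the sources used here.
Nudt3: CATGtatgtgccaaggggggaccaaga
Nudt4: CATGgtctcatctgagatggttgcatt
Nudt10: CATGttgattattataatactattgtt
Nudt11: CATGtactatgtggatgtgctttctaa
Ip6k1: CATGggttgggagctcacattacccct
Ppip5k1: CATGacaagtgctcaataaacacaaaa

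The *Nudt3* window lies in the 3′ UTR at chr17:27579712-27579738 on the minus strand, within a gene that runs from 27579391 to 27623452. The other windows lie in the 3′ UTR of their genes as well, at chr10:95547082-95547108 for *Nudt4*, chrX:6168936-6168962 for *Nudt10*, chrX:6054504-6054530 for *Nudt11*, chr9:108048133-108048159 for *Ip6k1* and chr2:121310570-121310596 for *Ppip5k1*. *Nudt10* and *Nudt11* are close copies of each other on the X chromosome, and their windows differ. None of the windows was found in a GENCODE transcript of another gene, with 0 such genes for each. Other CATG sites of some genes gave windows that another gene shares. These were 5 of 18 sites for *Ip6k1*, 1 of 9 for *Nudt3*, 1 of 3 for *Nudt10* and 1 of 7 for *Nudt11*. There were 0 for *Nudt4* and *Ppip5k1*. The reference used for alignment is that of the C57BL/6J strain. Whether CAST bases within a tag altered the hits of *Nudt3* was not tested.

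The markers of hypothalamus were present in all libraries, and the summed level of the 11 listed genes in the table was 10197 to 28348 in the *b6/b6* libraries and 5329 to 30004 in the *cast/cast* libraries. In whole tissue, fewer cells of a type and less RNA per cell cannot be told apart. Before any result, 4 libraries stood apart from the rest. Their median correlation with the other libraries over genes outside Chr 17 was 0.863 to 0.913, against 0.926 to 0.959 in the other 20 mice. They were *cast/cast* mice 4 and 6 and *b6/b6* mice 6 and 12, all of them with study numbers from 15 to 72. Between 22.2% and 44.2% of all genes lay outside the range of the other 20 mice in these libraries. Differences of the 8 genes are therefore given with all 24 mice and with the 20.

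*Nudt3* was lower in *cast/cast* than in *b6/b6* mice. In *b6/b6* mice its normalized count was 440.0 at the lowest, 694.7 at the median and 2454 at the highest, and in *cast/cast* mice 284.2, 401.1 and 550.8. Of the 12 *b6/b6* mice 10 lay above every *cast/cast* mouse, and 7 of the 12 *cast/cast* animals were lower than any *b6/b6* animal, so the groups overlapped in few animals. In *b6/b6* mice the mean was 906.9 ± 611.4 (SD, n = 12), and in *cast/cast* mice it was 417.9 ± 97.2 (n = 12). The ratio of means was thus 2.17 and that of medians 1.73, *b6/b6* over *cast/cast*. On the log2(normalized count + 1) scale the difference, *cast/cast* minus *b6/b6*, was -0.95 with a standard error of 0.22.

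**Figure D1:**
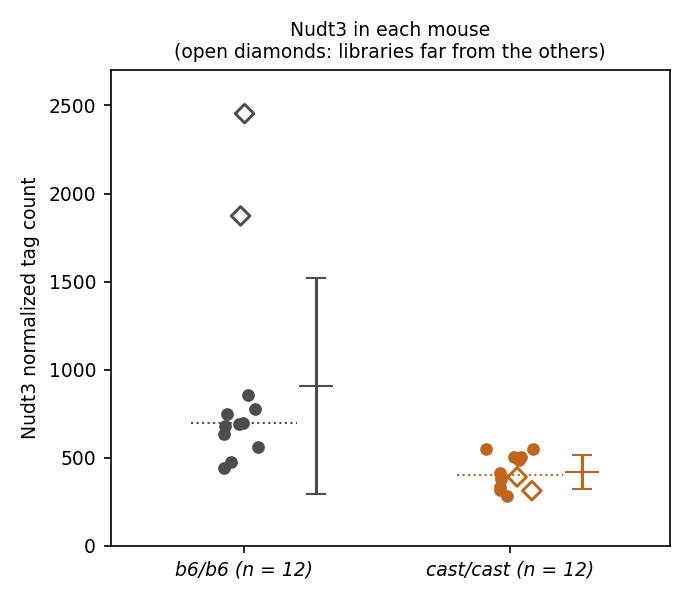
Normalized tag count of *Nudt3* (linear axis from 0) in each of the 12 *b6/b6* and 12 *cast/cast* mice; dotted lines are medians, the bars beside the points are the mean ± SD, and open diamonds are the 4 libraries that stood apart. The 2 highest *b6/b6* mice, at 1873 and 2454, are open diamonds, and 10 of 12 *b6/b6* mice sit above the highest *cast/cast* mouse at 550.8.

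The 2 highest *Nudt3* values belonged to *b6/b6* mice 6 (1873) and 12 (2454), whose libraries stood apart, while the other *b6/b6* mice lay between 440.0 and 858.5. Without the 4 libraries the *b6/b6* mean was 655.7 ± 131.5 and the *cast/cast* mean 431.2 ± 100.1 (n = 10 each). The ratio of means was then 1.52 in place of 2.17, and the log2 difference -0.61 with a standard error of 0.15. Thus the direction was the same and the groups still overlapped in few mice, 8 of 10 *b6/b6* mice lying above every *cast/cast* mouse. In the same libraries of *b6/b6* mice 6 and 12 the summed level of the 3 blood genes in the table was 4999 and 1704, against a *b6/b6* median of 526.6. The 5 microglial genes summed to 1409 and 1417 there, the lowest values of the *b6/b6* mice, and the 4 endothelial genes to 1148 and 1277. The hypothalamus list reached its highest *b6/b6* value, 28348, in mouse 12 (median 13649), and the 5 choroid plexus genes summed to 237.3 and 232.7 in mice 6 and 12 (median 180.7). In *cast/cast* mice 4 and 6 the hypothalamus list summed to 7410 and 5329 (*cast/cast* median 15553). The choroid plexus genes summed to 138.4 and 574.5 in them (median 162.5), and the microglial genes to 1772 and 3645 (median 1969). Of the 4 thalamus genes, which summed to 191.0 to 882.6 in *b6/b6* mice and 179.0 to 443.9 in *cast/cast* mice, *Tcf7l2* was called. Its *cast/cast* mean was 105.0, against a *b6/b6* mean of 205.7 (limma, unadjusted *P* = 0.00710, adjusted *P* = 0.449). *Tcf7l2* was also called without the 4 libraries. No gene of the other marker lists was called, where 1.49% of all genes were. The part of these marker levels in the *Nudt3* difference was not tested.

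The difference was present in early and late mice. Among mice with study numbers up to 125, *Nudt3* averaged 1298 ± 817 in 5 *b6/b6* mice and 441.8 ± 112 in 7 *cast/cast* mice. Above 125 the means were 627.6 ± 149 (n = 7) and 384.5 ± 69.2 (n = 5), a ratio of 1.63. The log2 difference was less negative in the later mice, by 0.69 with a standard error of 0.40, and this interaction of genotype with study number did not pass the test (limma, a linear model fitted to each gene with a spread shared over all genes, adjusted *P* = 0.419). By the same test 0 of the 8 genes and 0% of all genes had an interaction at an adjusted *P* of 0.05, while 1 gene of the 8, *Nudt4* (unadjusted *P* = 0.0297), and 13.5% of all genes were at an unadjusted *P* of at most 0.05. All 4 libraries that stood apart were among the earlier mice, and without them the interaction was -0.06.

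A gene counted as called if limma gave *P* ≤ 0.01 without adjustment and the means differed by a factor of at least 1.5 in that direction. Among the 8 genes only *Nudt3* met this, with all mice and without the 4 libraries. Over all genes 1.49% were called (1.01% as lower in *cast/cast* mice), or 1.37% without the 4 libraries, and among the 421 genes on Chr 17 between 3 and 46 Mb 24.7%. *Nudt3* was chosen on this contrast, so nothing is read from its call. Of the 79 genes of that stretch called lower in *cast/cast* mice, 64 had a larger log2 difference than *Nudt3*, and 7 had a higher mean in *b6/b6* mice. The *b6/b6* mean of *Nudt3* exceeded that of 84.3% of all genes, and its *cast/cast* mean that of 70.8%. These counts and shares are those of all 24 mice. The *b6/b6* mean of 906.9 includes *b6/b6* mice 6 and 12, and it was 655.7 without the 4 libraries.

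The other DIPP genes were not called. *Nudt4* had the highest mean tag count of the DIPP genes here. It ranged from 2093 over a median of 3411 to 6537 in *b6/b6* mice and from 2300 over 2994 to 9947 in *cast/cast* mice. The highest value was that of *cast/cast* mouse 6, whose library stood apart, and the groups overlapped over most of their range. Its log2 difference was 0.03 (95% interval -0.43 to 0.49, adjusted *P* = 0.981 by limma), and -0.33 (-0.68 to 0.03) without the 4 libraries.

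*Nudt11*, whose product belongs to the same class, had normalized counts of 555.1 at the lowest, 825.1 at the median and 2073 at the highest in *b6/b6* mice, and of 546.8, 754.8 and 879.5 in *cast/cast* mice. As for *Nudt3*, *b6/b6* mice 6 (1923) and 12 (2073) were far above the other *b6/b6* mice, which reached at most 1021. The log2 difference was -0.26 (95% interval -0.64 to 0.11, adjusted *P* = 0.677 by limma) and -0.07 (-0.33 to 0.18) without the 4 libraries.

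*Nudt10* differed from *Nudt11* in those mice, since *b6/b6* mice 6 and 12 had its lowest values, 137.4 and 80.5. The other mice lay between 178.0 and 658.9, and the medians over all 12 mice of a genotype were 480.6 in *b6/b6* mice and 487.9 in *cast/cast* mice. Its log2 difference was 0.24 (95% interval -0.36 to 0.84, adjusted *P* = 0.821 by limma), and 0.05 (-0.30 to 0.40) without the 4 libraries.

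*Nudt4* supplied most DIPP tags, and the sums of the 4 DIPP genes overlapped between the genotypes. The *b6/b6* sum was 5930 ± 1120 and the *cast/cast* sum 5515 ± 2108 (SD, n = 12 each), with medians of 5811 and 4807. The sums were 5842 ± 1206 and 4796 ± 920 (n = 10 each) without the 4 libraries. The share of *Nudt3* in this sum was 15.2% ± 9.11 in *b6/b6* mice, with a median of 11.6%, and 8.43% ± 3.23 in *cast/cast* mice, with a median of 9.73%. In *b6/b6* mouse 12 *Nudt3* made up 36.6% of the DIPP tags, more than the 31.3% of *Nudt4*. The shares without these libraries were 11.5% ± 2.76 and 9.32% ± 2.72 (n = 10 each), and these overlapped widely.

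**Figure D2:**
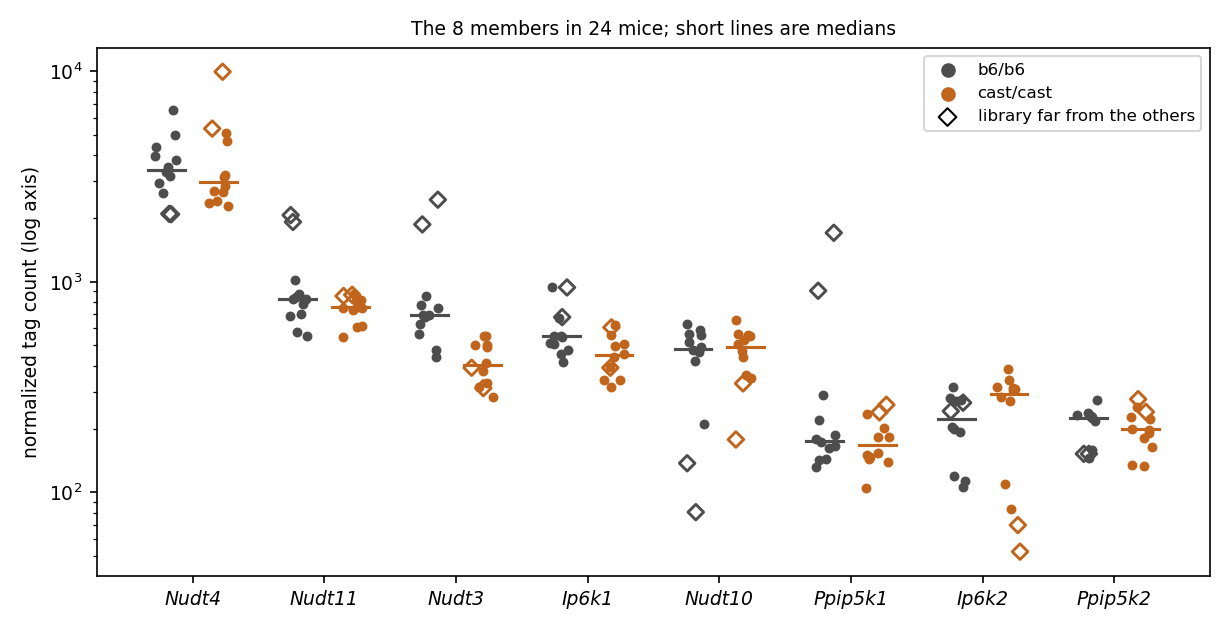
Normalized tag counts (log axis) of the 8 genes in each mouse, *b6/b6* in grey and *cast/cast* in orange, in the order of their *b6/b6* mean; short lines are medians and open diamonds are the 4 libraries that stood apart. For *Nudt3* the medians of 694.7 and 401.1 are well separated, whereas the high diamonds of *Ppip5k1* (906.4 and 1709) lie above 2 overlapping sets of points.

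*Ip6k1*, which encodes an IP6 kinase, had a lower mean in *cast/cast* mice but was not called. Its normalized counts were 417.4 at the lowest, 549.6 at the median and 942.6 at the highest in *b6/b6* mice, and 316.4, 447.4 and 620.8 in *cast/cast* mice. The lowest 5 values were from *cast/cast* mice and the highest 4 from *b6/b6* mice. The means were 603.8 ± 175 and 455.4 ± 104 (n = 12 each), a ratio of 1.33, *b6/b6* over *cast/cast*, with a log2 difference of -0.39 (95% interval -0.71 to -0.08). The unadjusted *P* was 0.0154 and the *P* adjusted over all genes 0.536 by limma. Without the 4 libraries the log2 difference was -0.33 (-0.64 to -0.01).

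*Ip6k2*, the other IP6 kinase in the table, varied widely within each genotype. It ranged from 106.3 over a median of 224.0 to 315.5 in *b6/b6* mice and from 52.2 over 294.0 to 385.5 in *cast/cast* mice. The 2 lowest values, 69.8 and 52.2, were those of *cast/cast* mice 4 and 6, whose libraries stood apart. The log2 difference was -0.05 (95% interval -0.70 to 0.60, adjusted *P* = 0.974 by limma) with all mice and 0.35 (-0.23 to 0.93) without the 4 libraries, so its sign rested on them.

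The mean of *Ppip5k1*, a PPIP5 kinase, differed between the genotypes, with 2 mice far above the rest. In *b6/b6* mice its normalized count was 131.9 at the lowest, 176.0 at the median and 1709 at the highest, and in *cast/cast* mice 104.2, 168.6 and 260.3. *b6/b6* mice 6 (906.4) and 12 (1709) exceeded the median of the other 20 mice by 5.52 and 10.4 times. The means were 367.7 ± 473 and 178.9 ± 47.7 (n = 12 each), a ratio of 2.06, while the ratio of medians was 1.04. The log2 difference was -0.49 (95% interval -1.17 to 0.19, adjusted *P* = 0.672 by limma). edgeR gave -1.03 (unadjusted *P* = 0.0108), and the mice with study numbers up to 125 gave -1.01. Without the 4 libraries the means were 179.8 ± 46.5 and 164.6 ± 37.6 (n = 10 each), and the log2 difference was -0.12 (-0.45 to 0.20).

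*Ppip5k2*, the second PPIP5 kinase, varied little, with a coefficient of variation of 20.6% in *b6/b6* mice and 22.3% in *cast/cast* mice. It lay between 145.7 and 273.7 in *b6/b6* mice and between 132.8 and 276.9 in *cast/cast* mice, and the log2 difference was -0.04 (95% interval -0.34 to 0.26, adjusted *P* = 0.950 by limma), and -0.20 (-0.49 to 0.10) without the 4 libraries. None of the 7 genes other than *Nudt3* was called, and 1 of them, *Ip6k1*, had an unadjusted *P* of at most 0.05, as did 8.13% of all genes. Their median log2 difference was -0.05, against -0.02 over all genes.

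**Figure D3:**
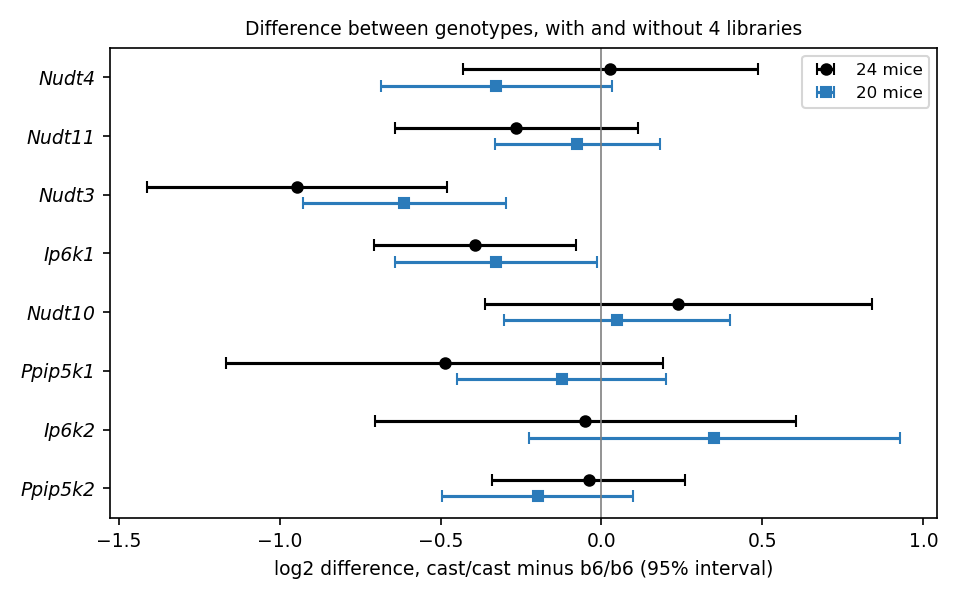
Log2 difference (*cast/cast* minus *b6/b6*, log2(normalized count + 1) scale) of each gene with its 95% interval, for all 24 mice (black circles) and for the 20 mice left without the libraries that stood apart (blue squares). *Nudt3* moved from -0.95 to -0.61 and *Ppip5k1* from -0.49 to -0.12, and the intervals of 6 genes include 0 in both sets of mice.

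In the 4 libraries that stood apart, the genes departed in different directions. In *b6/b6* mice 6 and 12 *Nudt3*, *Nudt11* and *Ppip5k1* lay above the range of the other 20 mice, and *Nudt4* and *Nudt10* lay below it, which made 5 of 8 genes outside the range in each. The share of all genes outside the range was 36.9% in mouse 6 and 44.2% in mouse 12. In *cast/cast* mouse 6 *Nudt4* lay above and *Nudt10* and *Ip6k2* below the range (3 of 8 genes, against 32.5% of all genes). In *cast/cast* mouse 4 *Ppip5k2* lay above and *Ip6k2* below it (2 of 8, against 22.2%).

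In the order of their *b6/b6* means the genes were *Nudt4*, *Nudt11*, *Nudt3*, *Ip6k1*, *Nudt10*, *Ppip5k1*, *Ip6k2* and *Ppip5k2*. Levels of different genes were compared without dividing by length or by number of CATG sites. An exact paired permutation test was used between neighbours in each genotype, with adjustment over 14 pairs. The transcripts held from 3 such sites (*Nudt10*) to 38 (*Ppip5k1*), and which of them were counted is not known. The part of site number in the differences between genes was not tested. *Nudt4* exceeded *Nudt11* in every mouse, by a mean of 1.95 on the log2 scale in *b6/b6* mice and 2.24 in *cast/cast* mice (adjusted *P* = 0.00228 in both, exact permutation test, two-sided). The place of *Nudt3* differed between the genotypes. In *b6/b6* mice it did not differ from *Nudt11* beyond the spread (mean log2 difference 0.18, adjusted exact *P* = 0.365) and exceeded *Ip6k1* in 10 of 12 mice (mean log2 difference 0.43, adjusted exact *P* = 0.0123). In *cast/cast* mice *Nudt3* was below *Nudt11* in 12 of 12 mice (mean log2 difference 0.86, adjusted exact *P* = 0.00228) and did not differ from *Ip6k1* beyond the spread (mean log2 difference -0.13, adjusted exact *P* = 0.352). These pairs include the *Nudt3* difference itself and add no separate evidence for it. *Nudt10* exceeded *Ppip5k1* in 11 of 12 *cast/cast* mice (adjusted exact *P* = 0.00513). The same pair in *b6/b6* mice passed the test only without the 4 libraries (10 of 10 mice, adjusted exact *P* = 0.00547, against 0.516 with all mice). *Ppip5k1*, *Ip6k2* and *Ppip5k2* followed without a difference between neighbours that passed the test in either genotype.

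Within a genotype *Nudt3* varied together with *Ip6k1*. The 28 pairs of genes were correlated over the 20 mice after the genotype means were subtracted, a comparison added after the values were seen, with mice permuted within genotype and *P* adjusted over the pairs. The points share library preparation, depth and normalization. For *Nudt3* and *Ip6k1* Pearson's r was 0.79 (permutation test, two-sided, adjusted *P* = 0.00224) and Spearman's rho 0.82 (adjusted *P* = 0.00224 in the same test). Within *b6/b6* mice r was 0.72 and within *cast/cast* mice 0.85, and without the 2 mice farthest from the median of *Nudt3* it was 0.72. Over all 24 mice r was 0.67 and rho 0.72.

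**Figure D4:**
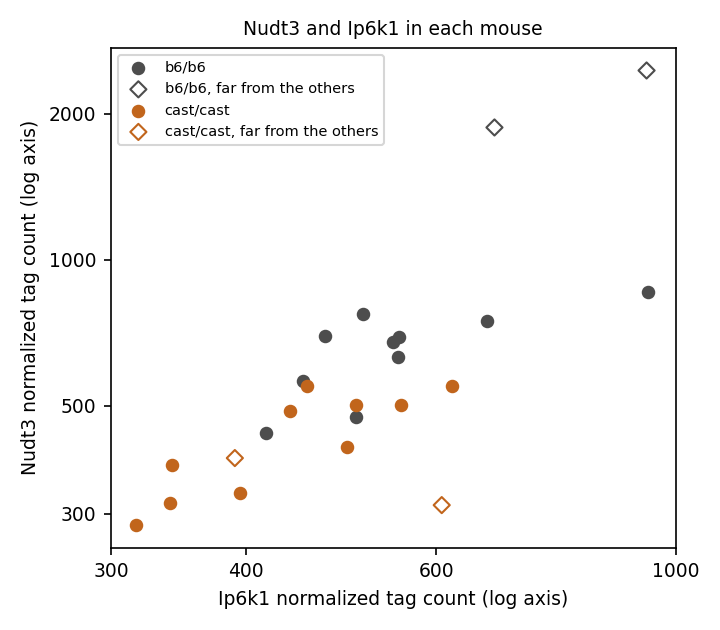
Normalized tag count of *Nudt3* against that of *Ip6k1* in each mouse (both axes log), *b6/b6* in grey and *cast/cast* in orange, with the 4 libraries that stood apart as open diamonds. The filled points of either genotype rise together, with r of 0.72 in *b6/b6* mice and 0.85 in *cast/cast* mice. The open diamonds of *b6/b6* mice 6 and 12 lie far above this trend and that of *cast/cast* mouse 4 below it. The diamond of *cast/cast* mouse 6 lies among the filled points.

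Among the other pairs 4 passed the test by Pearson's r over the 20 mice. The share of pairs of other genes that would pass was not computed, so these pairs are given as a description. *Nudt4* fell as *Ip6k2* rose (r = -0.67, rho = -0.63, permutation test, adjusted *P* = 0.0229 and 0.0407). *Nudt4* rose with *Ppip5k1* (r = 0.65, rho = 0.67, permutation test, adjusted *P* = 0.0229 and 0.0316). *Nudt10* with *Ip6k2* (r = 0.61) and *Nudt3* with *Nudt10* (r = 0.57) passed by Pearson's r but not by Spearman's rho (permutation test, adjusted *P* of rho 0.373 and 0.238). With all 24 mice *Nudt3* and *Nudt10* had r = -0.50 in place of 0.57, and *Nudt3* and *Ppip5k1* r = 0.72 in place of -0.12. Both changes came with the 4 libraries, and nothing is read from the pooled correlations of these pairs.

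Over all 24 mice and with the genotype means subtracted, the genes most like *Nudt3* included, of 11994 genes whose mean normalized count reached 20, *Dcaf7* (Pearson's r = 0.93), *Slc8a3* (0.93), *Shroom2* (0.92) and *Fam115a* (0.92). None of these 4 lies on Chr 17. They too were highest in *b6/b6* mice 6 and 12, with *Dcaf7*, for example, at 760.6 and 1599 against 73.4 to 221.1 in the other 20 mice. Over the 20 mice their r with *Nudt3* was between 0.73 and 0.77. *Ip6k1* ranked 1056th over the 24 mice and 30th over the 20, where 0.250% of genes had an r at least as high.

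Expression was also compared with intake within each genotype, so that the selection of mice by intake does not enter as a difference between groups. The 8 genes, 2 genotypes and 2 measures of intake, C/P kcal and total kcal summed over 10 d, gave 32 relations, and 0 passed at an adjusted *P* of 0.05 by Pearson's r or by Spearman's rho. By unadjusted permutation *P*, 6 of the 32 were at or below 0.05 for r and 3 for rho, where 12.6% and 10.6% of the same relations over all genes were. In *b6/b6* mice *Nudt3* had r = -0.69 and rho = -0.51 with C/P intake (n = 12, permutation test, two-sided, adjusted *P* = 0.162 and 0.388). Without the 2 mice farthest from the median intake r was -0.36, and without the libraries that stood apart -0.26, so the relation rested on a few mice. Other genes reached a similar size with C/P intake in the same 12 *b6/b6* mice. Their r was -0.72 for *Ppip5k1*, 0.72 for *Nudt10* and -0.62 for *Ip6k1* (permutation test, adjusted *P* = 0.162, 0.162 and 0.177). With total kcal *Nudt3* had r = -0.42 and rho = -0.63 in these mice, and r = -0.54 without the 2 mice farthest from the median intake (permutation test, adjusted *P* = 0.443 and 0.350 for the first 2 values). In *cast/cast* mice *Nudt3* had r = -0.15 and rho = -0.16 with C/P intake (n = 12, permutation test, adjusted *P* = 0.743 and 0.807). With total kcal it had r = 0.24 and rho = 0.20 in *cast/cast* mice (permutation test, adjusted *P* = 0.692 and 0.767). *Ppip5k2* in *cast/cast* mice had r = 0.52 and rho = 0.71 with C/P intake (n = 12, permutation test, adjusted *P* = 0.319 and 0.201), r = 0.55 without the 2 mice farthest from the median intake, and r = 0.69 and rho = 0.78 without the libraries that stood apart (n = 10, permutation test, adjusted *P* = 0.446 and 0.310). Its sign was the opposite with total kcal in the 12 *cast/cast* mice, r = -0.63 and rho = -0.71 (permutation test, adjusted *P* = 0.177 and 0.201). In *b6/b6* mice *Ppip5k2* had r = 0.02 with C/P intake (n = 12, permutation test, adjusted *P* = 0.954). Without the libraries that stood apart it had r = -0.68 and rho = -0.68 there (n = 10, permutation test, adjusted *P* = 0.446 and 0.617).

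The remaining genes of inositol phosphate metabolism did not differ by the call rule. The list of 38 genes covers inositol polyphosphate kinases and phosphatases, inositol supply, phosphoinositide phospholipases C, the IP3 receptors and the phosphate exporter *Xpr1*, and 35 of them were in the table. Of these 0 were called in either direction, against 1.49% of all genes. At an unadjusted *P* of at most 0.05 there were 3, all of them phospholipases C, where 8.13% of all genes were at that level. *Plcg1* had medians of 14.9 in *b6/b6* mice and 11.2 in *cast/cast* mice, *Plcg2* of 24.8 and 34.7, and *Plcd4* of 276.9 and 375.4. None of the 35 passed an adjusted *P* of 0.05 by limma. edgeR called 2 and DESeq2 called 0. The median log2 difference was -0.02, as over all genes (-0.02), and -0.14 without the 4 libraries, where it was -0.01 over all genes.

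The 2 most abundant genes of the list were not called. *Impa1*, the inositol monophosphatase that releases free inositol, averaged 2813 ± 466 in *b6/b6* mice and 2895 ± 414 in *cast/cast* mice (n = 12 each), with a log2 difference of 0.05 and a standard error of 0.11. *Xpr1*, which exports phosphate and binds inositol pyrophosphates through its SPX domain, averaged 2121 ± 482 and 2251 ± 875, with a log2 difference of 0.02 and a standard error of 0.18. The *Xpr1* means were 2173 and 2016 without the 4 libraries, and the log2 difference was -0.15. *Itpr3*, an IP3 receptor gene in the CAST segment, averaged 37.7 in *b6/b6* mice and 41.0 in *cast/cast* mice. Its lower coordinate lies 522.1 kb from that of *Nudt3*.

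Of 19 other genes of the Nudix family, taken by symbol, 18 were in the table. By limma 0 of them were called, against 1.49% of all genes. At an unadjusted *P* of at most 0.05 there were 2, *Nudt6* (means of 57.0 and 80.8 in *b6/b6* and *cast/cast*) and *Nudt17* (41.1 and 65.2), both higher in *cast/cast*. Over all genes 8.13% were at that level. edgeR and DESeq2 called 0 of the list as well. *Nudt16l1* had means of 688.9 ± 218 and 817.6 ± 317 and *Nudt16* of 685.5 ± 197 and 760.9 ± 165 in *b6/b6* and *cast/cast* mice. For *Nudt16* the order of the means turned without the 4 libraries (756.7 and 721.2). The median log2 difference of the 18 genes was 0.18, against -0.02 over all genes, and so opposite in sign to that of *Nudt3*.

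Around *Nudt3*, 30 other genes of the table start within 1 Mb of its start, and 6 of these were called, all lower in *cast/cast* mice. Starts and distances here refer to the lower coordinate of each gene, which is the 3′ end of *Nudt3* on the minus strand. Over Chr 17 between 3 and 46 Mb 24.7% of genes were called, 18.8% as lower, so 6 of 30 was close to the share of the whole stretch. The ranges of the 2 genotypes did not overlap for 3 of the 30 genes, *Phf1*, *Gm10505* and *Kifc5b*, where the share without overlap was 10.2% over the stretch and 0.336% over all genes. *Phf1*, which encodes a Polycomb protein, averaged 305.9 ± 110 in *b6/b6* mice but 14.5 ± 8.26 in *cast/cast* mice, that is, 21.1 times less (limma, adjusted *P* = 1.11e-12). *Kifc5b*, a kinesin gene whose start lies 662.3 kb from that of *Nudt3*, fell from 24.3 ± 7.74 to 4.28 ± 1.75 (limma, adjusted *P* = 1.26e-07). *Gm10505* averaged 16.7 ± 6.42 in *b6/b6* mice and 0.350 ± 0.827 in *cast/cast* mice, where no mouse exceeded 2.37.

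The 3 other called neighbours overlapped between the genotypes. *Uhrf1bp1*, the closest of them to *Nudt3* on the side of higher coordinates at 277.1 kb, averaged 89.2 ± 37.4 in *b6/b6* mice and 46.7 ± 10.2 in *cast/cast* mice (limma, adjusted *P* = 0.0361). *Ppard*, which encodes a nuclear receptor of lipid metabolism, averaged 25.3 ± 11.1 and 7.53 ± 5.67 (adjusted *P* = 0.00876). *Lemd2*, which encodes a protein of the inner nuclear membrane, averaged 36.6 ± 13.8 and 13.2 ± 6.34 (adjusted *P* = 0.0302). All 3 were still called without the 4 libraries, but their adjusted *P* by limma was 0.114 for *Uhrf1bp1*, 0.0959 for *Ppard* and 0.166 for *Lemd2*. The neighbours at an adjusted *P* of at most 0.05 thus went from 6 to 3.

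The genes nearest to *Nudt3* were not called. *AI413582*, at 27563769 to 27565727, starts 15.6 kb away by lower coordinate and had a log2 difference of 0.00. *Rps10*, a ribosomal protein gene at 27630429 to 27635242, starts 51.0 kb away by the same measure. It lies beyond the 5′ end of *Nudt3*, with a smaller gap between the 2 genes than for *AI413582*. Its log2 difference was 0.24 with a standard error of 0.21, higher in *cast/cast* mice. *Rps10* averaged 1770 ± 559 in *b6/b6* mice and 2149 ± 860 in *cast/cast* mice. Without the 4 libraries the *Rps10* means were 1653 and 2369 and its log2 difference 0.53 with a standard error of 0.19 (limma, unadjusted *P* = 0.00913, adjusted *P* = 0.489), and the ratio of 1.43 kept it from being called. The most abundant gene within 1 Mb, *Rpl10a*, also encodes a ribosomal protein and averaged 10224 ± 3968 and 11788 ± 5614. The order of its means turned without the 4 libraries, with 11194 in *b6/b6* mice and 9552 in *cast/cast* mice.

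**Figure D5:**
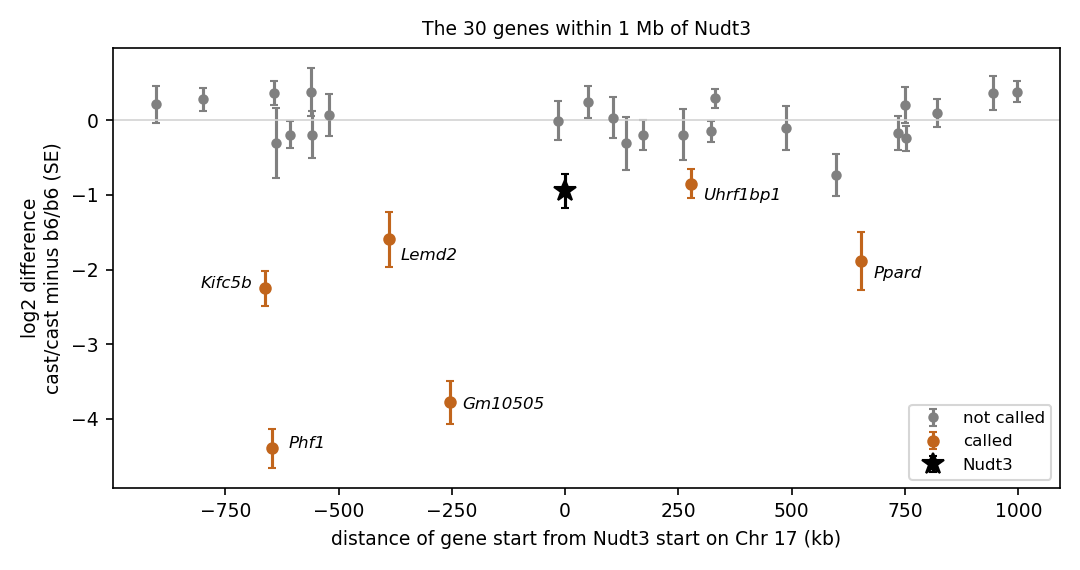
Log2 difference (*cast/cast* minus *b6/b6*, error bars are standard errors) of *Nudt3* (star) and the 30 other genes within 1 Mb, against the distance of each gene start (lower coordinate) from that of *Nudt3* in kb. The 6 called genes (orange) lie between 254.2 and 662.3 kb from *Nudt3* and below 0, while *AI413582* (0.00) and *Rps10* (0.24), the nearest ones described, are grey and not called.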

How the data were processed

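Tags were placed by the authors on RefSeq mRNA and GRCm38 with an adapted version of the SOLiD SAGE software. The deposited signal values are hits per gene after division by a size factor that DESeq estimated for each library. Further columns give comparisons made by the authors, namely a p-value with its adjusted form, a ratio of means and its log2, and none of these was used. The members and lists were chosen with earlier results of these data known.

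The table held 19529 rows for 13998 genes, with identical values in repeated rows. All values up to a limit in hits (100%) were whole multiples of the value of 1 hit within 0.02 hits. Larger values, such as most of those of *Nudt4*, were left out of this check. The lowest mean normalized count was 6.03. Genes were tested with limma 3.58.1 (trend, R 4.3.3) on log2(normalized count + 1), without covariates, in all 24 mice, and called at *P* ≤ 0.01 (unadjusted) with means that differed by a factor of 1.5 or more. Adjusted *P* are Benjamini-Hochberg values over all genes unless pairs or relations are named. 95% intervals used the t quantile with the number of mice minus 2 degrees of freedom. Permutation tests used 100000 resamples (10000 for the share of all genes related to intake), or all sign changes for paired tests. A library stood apart if its median correlation with the others was over 3 scaled median absolute deviations below the median. Tags carry no molecular identifiers, and the spread between mice was used as the error. Named were all members, every called gene of each list (at most 10) with the 2 most abundant, and the 5 genes most like *Nudt3*, of which 1 is not reported here. *AI413582*, *Itpr3*, *Tcf7l2* and the genes named only under other settings were chosen after their values were seen. Alternatives used the recovered hits with edgeR 4.0.16 and DESeq2 1.42.0, other pseudocounts, filters and subsets. The fits were tested on simulated data. Tables and tests used scipy 1.17.1, pandas 2.3.3 and numpy 2.4.6 under Python 3.11.15, and figures matplotlib 3.10.9.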

Additional observations from a re-analysis of the deposited data

How the results depend on the processing

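*Nudt3* was lower in *cast/cast* mice under all alternatives, with log2 differences from -1.38 (study numbers up to 125) to -0.54 (2 principal components as covariates). Leaving out each mouse in turn gave -1.02 to -0.80, and 1 member was called each time. These settings reuse the mice on whose contrast *Nudt3* was chosen, so they add no separate evidence for its difference. With 0 called pathway genes, leaving out a mouse gave 0 to 1 (*Plcg2*, without *b6/b6* mouse 7), edgeR gave 2 (*Plcg1*, *Cdipt*), study number as a covariate 1 (*Plcg1*), no minimum fold 1 (*Plcd4*), and study numbers up to 125 gave 2 (*Plcd4*, *Impad1*). For other Nudix genes leaving out a mouse gave 0 to 1 (*Nudt17*, without *cast/cast* mouse 4 or 6 or *b6/b6* mouse 4 or 9), study number as a covariate 1 (*Nudt17*), and study numbers up to 125 gave 1 (*Nudt8*). Of the genes within 1 Mb, leaving out a mouse called 6 to 7, and a minimum mean of 20 called 3, since fewer genes were tested. Study numbers up to 125 called 8 (*Cuta* and *Lhfpl5* gained, higher in *cast/cast* mice) and those above 125 called 4 (*Ppard* and *Uhrf1bp1* lost). The members below changed sign under the settings given. *Nudt4* was -0.064 with libraries rescaled, -0.040 with principal components, -0.40 above study number 125 and -0.33 without the 4 libraries, and -0.11 to 0.11 on leaving out a mouse. *Nudt10* was -0.26 with principal components and -0.023 above study number 125, *Nudt11* 0.066 and *Ppip5k1* 0.13 with principal components. *Ppip5k1* was -1.03 with edgeR and -1.01 up to study number 125. *Ip6k2* was 0.13 with edgeR, 0.13 with DESeq2, 0.20 above study number 125 and 0.35 without the 4 libraries, and -0.14 to 0.12 on leaving out a mouse. *Ppip5k2* was 0.032 up to study number 125, and -0.083 to 0.0125 on leaving out a mouse. The causes were not tested. Of the 14 neighbouring pairs of levels 5 differed, and 6 without the 4 libraries. The interactions and the relations with intake stayed at 0 under their alternatives. No paired analysis was possible because the labels give no replicate numbers, and the numbers of the mice follow accession order only.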
